A study of Mus musculus with 2 samples.

Results

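Accessible chromatin was described at 10 genes in the kidney of newborn mice: Rest, which encodes the repressor REST, and 9 genes known for their roles in neurons (Snap25, Syt1, Stmn2, Rbfox3, Gad1, Grin1, Scn2a, Bdnf and Celsr3). They are 10 of the 21938 protein-coding genes annotated on chromosomes 1 to 19, X and Y in GENCODE release M21, and they were named as a list. For each gene, peaks within 1 kb of any annotated transcription start site (TSS) were taken, together with the sites found in both replicates within 50 kb of its most 5′ TSS. The genes and sites were thus chosen by the deposited peaks and their signal values in these same replicates, so their values are a description and nothing about them was tested.

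DNase I cuts DNA that is free of nucleosomes, and its cuts pile up as a peak where chromatin is accessible. The study holds 1 group, kidney tissue of strain B6NCrl (a C57BL/6N substrain) at postnatal age 0 days with no treatment named, in 2 biological replicates. Each replicate has its own tissue record in the labels, but both have the same donor record, and sex was not collected, so the spread between the replicates may be technical. Replicate 1 holds 266133 peaks and replicate 2 holds 257133, which share 197749 sites that cover 1.32% of the genome, and the sequencing depth is unknown. Each value below is the authors' peak signal, given as replicate 1 and replicate 2 or as mean ± SD (n = 2). A promoter peak in both replicates was found for all 10 kidney genes that were checked (71.8% of all protein-coding genes have one). Wt1, of progenitors and podocytes, had the highest at 116 ± 7.54, and Six2, of nephron progenitors, had 72.7 ± 0.376.

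REST is a zinc finger protein that binds a DNA element known as RE1 and silences neuronal genes in cells that are not neurons. It recruits a pair of corepressor complexes, one built on the Sin3 proteins and one on CoREST with the demethylase Kdm1a and histone deacetylases. The canonical RE1 has a left and a right block of bases with a short spacer, and many genes for synaptic proteins, ion channels and neurotransmitter synthesis carry one near their start.

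Of the 9 neuronal genes, 8 had an accessible site in both replicates that held an RE1 word, and Syt1 had none. The word searched was TTCAGCACC, then 2 free letters, then GGACAGCGC, on both strands, with at least 15 of its 18 fixed letters matching. Of all protein-coding genes, 5.17% have such a site within 50 kb. The 8 words are shown because each marks the accessible element of 1 gene, with the 20 bases of the word in capitals, 5 flanking bases on each side, and mm10 coordinates of the bases shown.
Stmn2, chr3:8508225-8508254, plus strand: gccatTTCAGCACCACGGACAGCGCttctg
Gad1, chr2:70559694-70559723, minus strand: aagacTTCAGCACCGAGGACAGCGCctgtc
Snap25, chr2:136714333-136714362, plus strand: gacctTTCAGCACCGCGGACAGCGAtccgg
Grin1, chr2:25319010-25319039, minus strand: tacgcTTCAGCACCTCGGACAGCACccgcc
Scn2a, chr2:65619959-65619988, plus strand: tggctTTCAGCACCACGGACAGCACcagaa
Bdnf, chr2:109676040-109676069, plus strand: gtccaTTCAGCACCTTGGACAGAGCcagcg
Celsr3, chr9:108825913-108825942, plus strand: ctccgTTCAGCACCGTGGGCAGCACttctg
Rbfox3, chr11:118906744-118906773, minus strand: agggcGGCAGCACCAAGGACAGGGCtaggg
The words of Stmn2 and Gad1 matched all 18 letters. Those of Snap25, Grin1, Scn2a and Bdnf matched 17, that of Celsr3 matched 16 and that of Rbfox3 matched 15. The left block matched in all 9 letters in 7 of the 8 genes, Rbfox3 being the exception. Every mismatch of the other genes lay in the right block. In 7 genes the word lay on the strand of the gene, and in Gad1 on the opposite strand.

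The position of the word differed from gene to gene. In Grin1, which encodes the obligatory subunit of NMDA-type glutamate receptors, it lay in the 5′ UTR, 162 bp from the most 5′ TSS. In Bdnf, which encodes a neurotrophin, it lay in an untranslated exon 158 bp from the TSS of Bdnf-207, Bdnf-208 and Bdnf-210, where the predicted gene Gm45346 also lies. In Snap25, a SNARE protein of synaptic vesicle fusion, it lay in intron 1, 870 bp from the nearest TSS. In Celsr3, an atypical cadherin of axon tracts, and in Scn2a, a voltage-gated sodium channel, it lay before the first exon, at −392 and −797 bp. Stmn2, a microtubule regulator of growing axons, had it at −1120 bp. The words of Gad1, the enzyme that makes the transmitter GABA, and Rbfox3, the RNA-binding protein also known as NeuN, lay in first introns, at 6637 and 4838 bp from the most 5′ TSS. The Gad1 word was at −2333 bp from the TSS shared by Gad1-201 and Gad1-203, and there it also lies within the antisense gene Gad1os.

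The 8 sites with a word were 150 or 170 bp wide, and sites without a word had these widths too. Distances from the word to the centre of its site ran from 1 to 41 bp, and the median over all accessible words of the genome was 12 bp. The sites of Snap25 (chr2:136714261-136714430) and Stmn2 (chr3:8508161-8508310), both on the plus strand and with the word in capitals, are shown whole, the first for its signal, the highest of the 8, and the second for a word that matches in full, as that of Gad1 also does.
Snap25 intron 1 site: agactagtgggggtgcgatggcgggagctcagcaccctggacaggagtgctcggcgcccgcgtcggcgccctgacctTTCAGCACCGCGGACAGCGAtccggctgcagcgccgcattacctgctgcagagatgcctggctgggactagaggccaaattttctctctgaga
Stmn2 upstream site: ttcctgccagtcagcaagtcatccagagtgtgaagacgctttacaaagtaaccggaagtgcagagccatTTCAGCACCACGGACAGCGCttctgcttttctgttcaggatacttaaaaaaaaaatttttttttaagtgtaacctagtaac
The Snap25 site had a GC content of 64.7% and the Stmn2 site 41.3%, so the bases around the word differed widely in composition. Over all shared sites the median was 50%.

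Signal at the 8 sites with a word was moderate to high and differed little between replicates. The Snap25 site had a signal of 70.7 and 80.5 (75.6 ± 6.93), the highest of the 8. The Celsr3 site followed with 67.0 and 71.6 (69.3 ± 3.27), and the Gad1 site with 46.9 and 59.4 (53.1 ± 8.87). These 3 sites ranked above the other 5 in the mean, although the lower Gad1 value lay below the higher value of Bdnf and of Grin1. The Bdnf site had 45.3 and 48.6 (46.9 ± 2.32), the Grin1 site 37.7 and 48.6 (43.2 ± 7.72), and the Stmn2 site 40.2 and 41.8 (41.0 ± 1.08). The Bdnf site was above the Stmn2 site in both replicates, while the Grin1 values spanned those of Stmn2 and reached those of Bdnf. The Scn2a site had 34.2 and 40.7 (37.5 ± 4.60). The Rbfox3 site was lowest in both replicates, with 24.7 and 27.5 (26.1 ± 1.98), and it also has the poorest match. Signal did not follow the match throughout. The Stmn2 site, with all 18 letters matching, lay below the Celsr3 site, with 16, in both replicates. In a tissue, a lower signal from fewer accessible cells and from weaker cutting in each cell cannot be told apart.

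Set against the other sites of the same 9 genes, those with a word had a higher median signal. It was 42.8 in replicate 1 and 48.6 in replicate 2, against 22.8 and 22.1 over the 72 sites without a word. Over all shared sites the medians were 21.5 and 20.4, and over the 922 shared sites of the genome with a word they were 31.6 and 33.6. Of the 96 shared sites within 50 kb of the 10 genes, 8.33% held a word, and of all shared sites 0.466%. The site with the word was the strongest shared site within 50 kb of Stmn2, ranked 2 for Snap25 and Bdnf, 3 for Scn2a and Rbfox3, 4 for Gad1, 6 for Celsr3 and 7 for Grin1. Sites ranked above it at Celsr3 and Grin1 included promoters of neighbouring genes.

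**Figure D1:**
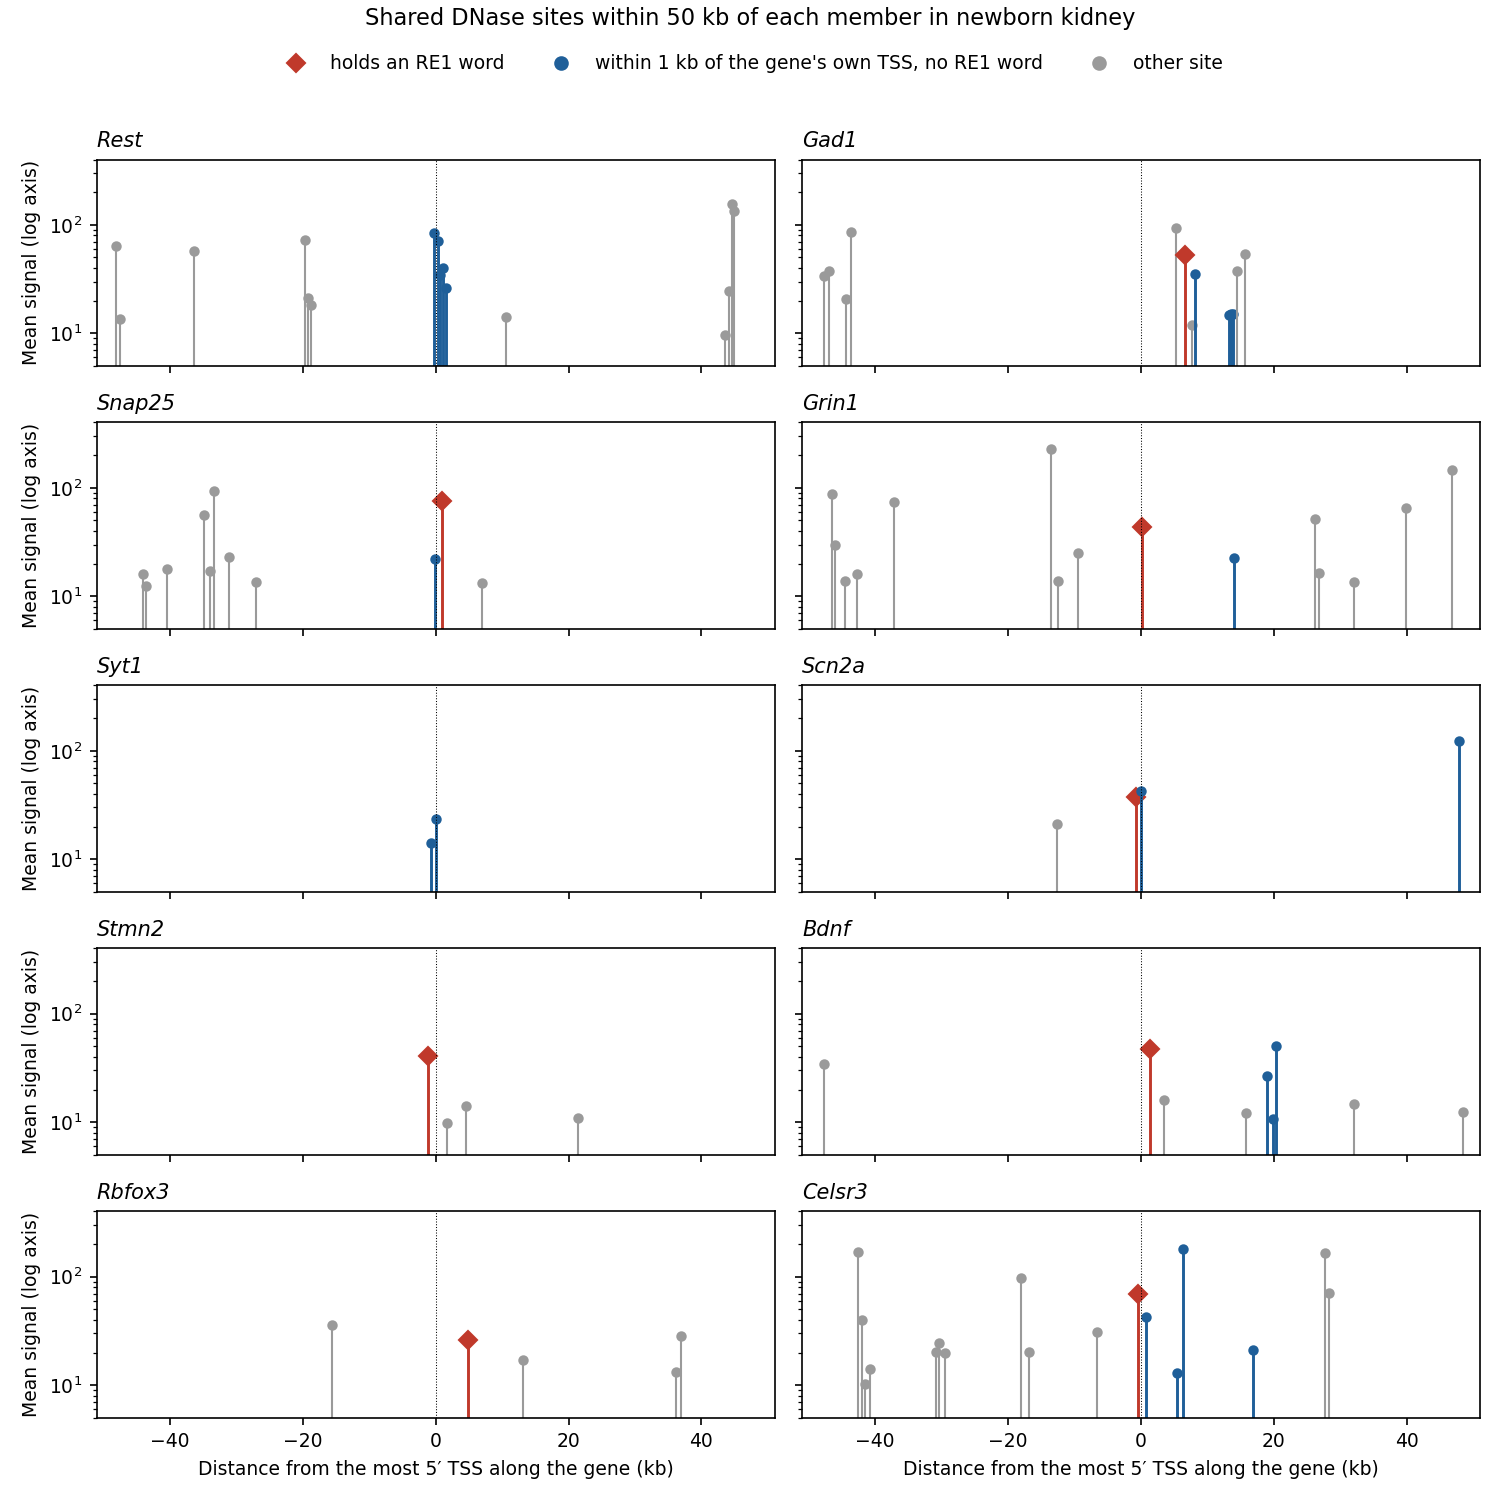
Mean signal of both replicates (log axis) of each site shared by the replicates, against its distance in kb from the gene's most 5′ TSS in the direction of transcription, for the 10 genes. Red diamonds hold an RE1 word, blue points lie within 1 kb of a TSS of the gene itself, and grey points are other sites. A red diamond appears in 8 of the 10 panels, within 7 kb of the TSS in each, and Syt1 has only its 2 sites at the start.

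Across the whole genome, most words with at least 16 matching letters were accessible, and most with 15 were not. There were 2144 words with at least 15 matching letters, of which 959 (44.7%) lay in a shared site, 76 in a peak of 1 replicate and 1109 in no peak. The share in a shared site was 30.6% of 1535 words with 15 letters, 75.5% of 457 with 16, 94.1% of 136 with 17 and 100% of 16 with all 18. The Stmn2 and Gad1 words are 2 of those 16. Signal followed the same order, with medians of 28.8 and 30.0 at 15 letters and 45.6 and 53.7 at 18. The left block was matched in all its letters by 33.8% of words in shared sites and by 18.1% of words in no peak. For the right block the shares were 10.01% and 3.61%. These shares were not split by the number of matching letters. Only 15 letters matched in 1010 of the 1109 words in no peak and in 470 of the 959 in shared sites. The block shares thus partly restate the total match, and nothing separate is read from them. The values of the 8 genes lay on both sides of the median signals of their classes. Rbfox3, with 15 letters, had a signal a little below the medians of its class. Snap25, with 17, lay above the class medians of 39.4 and 43.6 in both replicates. Stmn2, with 18, lay below its class medians in both replicates, and Celsr3, with 16, lay above its own of 33.3 and 35.4. These are counts over words, which are not independent replicates, and they include the words of the 8 genes.

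**Figure D2:**
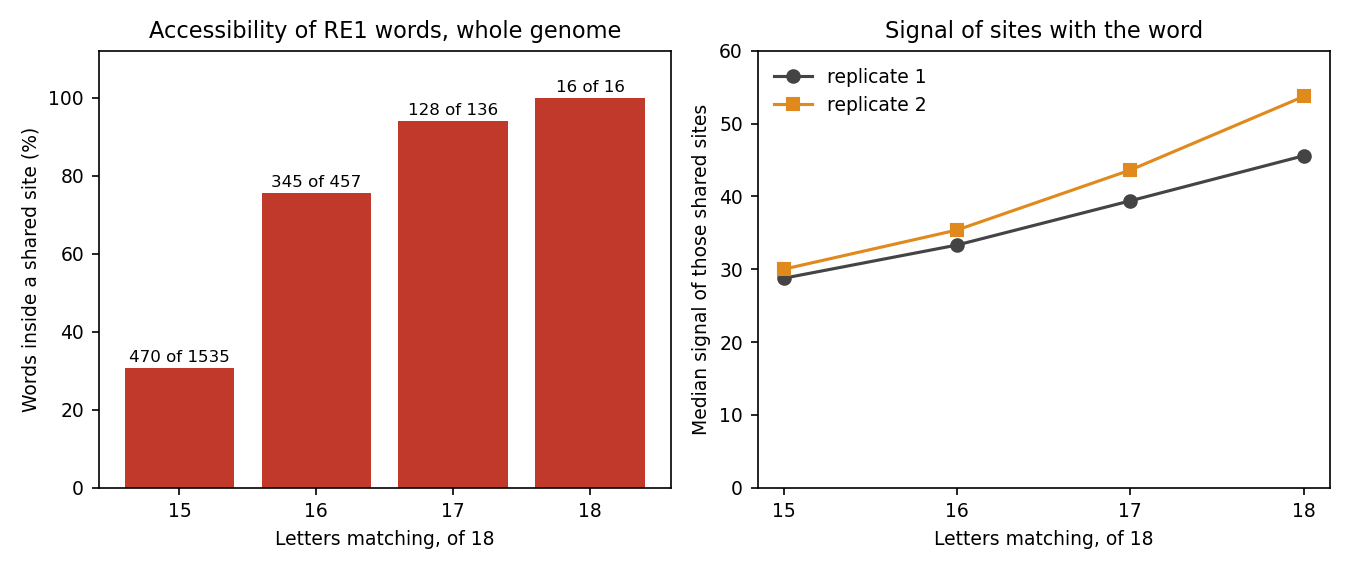
Left, the percent of RE1 words of the mouse genome inside a site shared by both replicates, by the number of matching letters of 18, with counts above the bars. Right, the median signal of those sites in each replicate; both the share and the median are highest at 18 letters, where 16 of 16 words are accessible.

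Rest itself was accessible along its start and had no RE1 word in any peak. The gene (chr5:77265491-77286432, plus strand) has a pair of annotated TSSs and a CpG-rich start, in the highest of 5 quintiles of promoter CpG content. Its strongest promoter peak had a signal of 72.9 and 93.8 (83.3 ± 14.8), centred near −185 bp from the TSS of Rest-201. A row of 4 further sites followed, at 354, 694, 1134 and 1624 bp, with mean signals of 70.6, 34.5, 39.8 and 26.1. The signal thus fell away into the first part of the gene, except that the site at 1134 bp was higher than the one before it in both replicates. At the TSS of Rest-202 itself the peak had 33.3 and 35.7, and this value replaces 83.3 where only peaks within 100 bp of a TSS are counted. The median promoter signal over all genes with a peak in both replicates was 95.4 and 104.6, and the Rest peak stood at the 41.4 percentile of them.

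The strongest Rest site (chr5:77265221-77265390, plus strand) is shown as the promoter of the repressor itself. Capitals mark GGGCGG on either strand, the core of the GC box read by SP and KLF factors. It occurs in 12.5% of all shared sites and in 32.3% of those within 1 kb of a TSS. Of the 96 sites, 28 hold it, and 52 of the 96 lie within 1 kb of a TSS.
Rest promoter site: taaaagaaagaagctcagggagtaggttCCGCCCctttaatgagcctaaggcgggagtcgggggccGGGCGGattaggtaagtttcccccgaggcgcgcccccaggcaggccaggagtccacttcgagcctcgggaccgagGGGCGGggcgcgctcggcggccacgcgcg
It holds 3 such words. The 1 RE1 word within 50 kb of Rest, with 15 letters, lay 22470 bp downstream of the TSS and beyond the end of the gene, in no peak of either replicate. In the genome 1010 of the 1535 words with 15 letters were likewise in no peak. Within 50 kb of Rest lay 16 shared sites. The strongest were at the divergent promoter of Polr2b and Noa1, with 138 and 173 and with 119 and 147. Among the intergenic sites, that at −19675 bp had 76.2 and 67.8. A pair of sites farther upstream, at −48065 and −36315 bp, held the CTCF consensus and had signals of 60.7 and 68.0 and of 52.3 and 61.6. CTCF is the zinc finger protein of insulators and loop anchors, and its consensus occurs in 3.38% of all shared sites.

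The proteins that REST recruits were accessible at their promoters throughout. All 22 cofactor genes in the list had a promoter peak in both replicates, against 71.8% of all genes, and all 22 had a peak within 100 bp of a TSS, against 63.8%. However, 17 of the 22 are in the 2 highest quintiles of promoter CpG content. In those quintiles 97.9% and 99% of all genes have a promoter peak in both replicates, so the count is near that background. None of the 22 had an RE1-bearing site within 50 kb, where the share over all genes is 5.17%. A count of 0 among 22 is thus also near the background. The highest signals were those of Hmg20b, a CoREST complex subunit, with 282 ± 13.0, and Sin3a, the scaffold of the Sin3 complex, with 277 ± 6.19. The median over the list was 105.6 and 124.8, against 95.4 and 104.6 over all genes with a peak.

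A promoter peak was present in both replicates at 9 of the 10 genes, against 71.8% of protein-coding genes. A peak within 100 bp of a TSS was present in 8, against 63.8%. Because the list was proposed with these peaks known, nothing is read from these shares. Signals were mostly below the middle of the genes with a peak: only Celsr3, at the 80.8 percentile, and Scn2a, at the 61.2 percentile, stood above it. By quintile of promoter CpG content, 19.2%, 53%, 89.7%, 97.9% and 99% of all genes have a promoter peak in both replicates. Rbfox3 is in the lowest quintile, and Gad1 and Stmn2 are in the next. Snap25, Syt1, Scn2a and Bdnf are in the middle one, Celsr3 in the next and Rest and Grin1 in the highest. Each quintile is that of the most 5′ TSS only. For Gad1 this is the TSS of Gad1-204, a transcript outside the GENCODE basic set, with no peak within 1 kb. The Gad1 quintile thus does not describe the start of Gad1-201, 8970 bp downstream. At several genes the strongest promoter peak lay at a distance from the main start, and the value at the start itself is then given beside it.

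The genes of transmitter release had weak starts. At Snap25 (chr2:136713453-136782428, plus strand) the promoter window was led by the RE1 site of intron 1, and the start itself had only 23.0 and 21.1 (22.1 ± 1.37). The signal at the intron site was more than 3 times that at the start in both replicates. With a window of 500 bp in place of 1 kb, the promoter value of Snap25 is that of the start, 22.1. The bases of this start site up to the TSS (chr2:136713321-136713452, plus strand) are shown because the site is the only 1 of the 96 with TGACGTCA. This is the cAMP response element word, which 0.573% of all shared sites and 1.32% of those within 1 kb of a TSS hold.
Snap25 start site: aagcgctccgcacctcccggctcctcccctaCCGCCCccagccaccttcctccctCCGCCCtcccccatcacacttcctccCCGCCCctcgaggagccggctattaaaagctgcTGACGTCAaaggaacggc
The capitals mark that word, 18 bp before the TSS, and 3 copies of GGGCGG on the minus strand. Among the 11 shared sites near Snap25, the strongest lay at −33417 bp, at the TSS of the predicted gene Gm36967, with 98.3 and 88.8, and another at −34797 bp had 53.0 and 58.3.

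Syt1 (chr10:108497650-109010982, minus strand), the calcium sensor of synaptic vesicles, had the weakest promoter of the 9 with a peak. Its peak at the TSS had 20.8 and 25.8 (23.3 ± 3.52), at the 10.8 percentile. A second site at −693 bp had 13.2 and 15.2. These were its only 2 shared sites, where the median over all protein-coding genes was 11, and the next site lay 80.6 kb away with 37.8 and 35.5. No RE1 word with at least 15 letters was found within 50 kb of it or anywhere in the gene, which spans 513 kb.

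**Figure D3:**
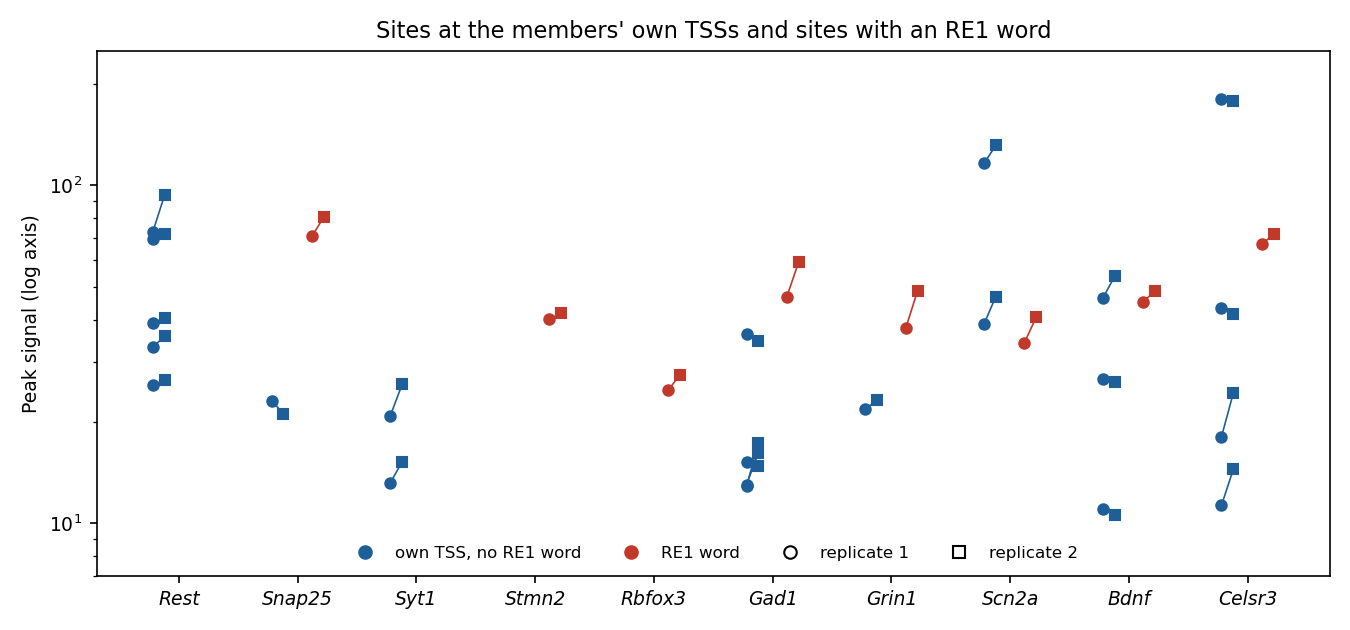
Signal (log axis) of shared sites in the 50 kb windows of the 10 genes, those near (within 1 kb of) a TSS of the gene itself in blue and those with an RE1 word in red, with a circle for replicate 1 and a square for replicate 2 joined by a line. At Snap25 the red pair lies well above the blue pair, at Scn2a the red pair lies slightly below the start site, and Stmn2 and Rbfox3 have a red pair only within this window.

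Stmn2 and Rbfox3 had no shared site at a start within 50 kb. Stmn2 (chr3:8509360-8561606, plus strand) had no peak within 1 kb of any of its 4 TSSs in either replicate, and its RE1 site, just outside that window, was its strongest of 4. It enters the count of genes with a promoter peak when the window is 2 kb, with 41.0. Its other sites were in introns and weak, with mean signals of 14.04, 10.8 and 9.80. Rbfox3 (chr11:118489762-118911597, minus strand) has 9 distinct TSSs. At the most 5′ TSS only replicate 2 had a peak, with 13.2. Its promoter peak of 46.0 and 48.3 (47.2 ± 1.61) lay at −722 bp from the TSS of Rbfox3-210, which is 404244 bp into the gene and outside the GENCODE basic set. With basic transcripts alone, or with a window of 500 bp, Rbfox3 has no promoter peak in both replicates. A site at −15648 bp had 31.0 and 40.0 and one at 36961 bp had 29.8 and 26.5.

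Rbfox3 is long, and its body held more RE1 words than its start. Beyond 50 kb, and thus outside the rule, 3 more accessible sites held a word. The one in intron 4 with 3 words in a row on the gene's strand had 64.4 and 114, the widest gap between replicates among the RE1 sites described. A second site in intron 4 had 39.3 and 23.3, and a site in intron 3 had 71.8 and 75.1. The intron 3 site was close in both replicates, while in intron 4 one site was higher in replicate 2 and the other in replicate 1.

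Gad1, Grin1, Scn2a and Bdnf, which act in transmission and plasticity, each have several annotated starts, and these differed in accessibility. Gad1 (chr2:70553072-70602014, plus strand) had its strongest promoter peak at −866 bp from Gad1-201 and Gad1-203, with 36.3 and 34.5 (35.4 ± 1.23). Within 100 bp of a TSS its peaks were weak: at Gad1-206 the signals were 13.02 and 16.2, and at Gad1-201 only replicate 2 had a peak, with 18.9. With a window of 500 bp the promoter value of Gad1 fell to 17.7. This is the mean of separate peaks, with 16.6 in replicate 1 and 18.9 in replicate 2, which form no shared site. Its strongest site within 50 kb was intronic, at 5253 bp, held the CTCF consensus and had 85.2 and 101.7. Other strong sites were at the Erich2 promoter, with 83.1 and 87.0, and at 15683 bp in the gene, with 56.3 and 51.7.

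Grin1 (chr2:25291181-25319187, minus strand) had a single site at its main start, which was the RE1 site, although the start lies in the highest CpG quintile. An internal start, that of the noncoding transcript Grin1-212, had 21.7 and 23.2. The gene lies in a dense neighbourhood, and the strongest of its 15 sites were promoters of other genes: Man1b1 with 207.5 and 250.3, Ssna1 with 140.1 and 148.6, and Uap1l1 with 89.8 and 84.7. Within the gene, a site at 26151 bp with the CTCF consensus had 44.3 and 57.8.

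Scn2a (chr2:65620771-65767447, plus strand) had 4 shared sites, and 3 were at its own starts. The most 5′ start had 38.9 and 46.9 (42.9 ± 5.67), and the RE1 site just upstream was close to it in both replicates. Its strongest peak, with 116 and 131 (124 ± 10.7), lay at the starts of Scn2a-209 and Scn2a-205, 47.8 kb into the gene, and held the CTCF consensus. This site lies just inside the 50 kb window. Counted in either direction, the nearest site outside the window lay 53.2 kb from the most 5′ TSS, with 32.6 and 43.4. These are the values of the strongest promoter peak of another sodium channel gene, Scn3a.

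Bdnf (chr2:109674700-109727007, plus strand) has 9 distinct TSSs, and the first, that of Bdnf-201, had no peak within 1 kb. The start with the RE1 site, that of Bdnf-207, Bdnf-208 and Bdnf-210, was accessible in both replicates with 45.3 and 48.6. The start of Bdnf-205 had 26.7 and 26.1. The strongest peak, with 46.3 and 53.8 (50 ± 5.30), lay 526 bp inside Bdnf-204. It was above the RE1 site in both replicates, only slightly so in replicate 1. The means differed by less than the SD of this peak but by more than that of the RE1 site, 2.32. Peaks at the starts of Bdnf-209 and Bdnf-211 were found in replicate 1 only, with 12.9 and 10.9, and Bdnf-202 had none. An intergenic site at −47634 bp had 39.7 and 29.0.

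Celsr3 (chr9:108826320-108852969, plus strand) had the strongest promoter peak of the 10 genes, with 180 and 178 (179 ± 1.17). It lay 845 bp inside Celsr3-202, a transcript outside the basic set that starts 5420 bp into the gene. With basic transcripts alone, or with a window of 500 bp, the promoter value is that of the RE1 site, 69.3. No peak lay within 100 bp of the most 5′ TSS in either replicate. A site at 825 bp had 43.4 and 41.7, and the internal start of Celsr3-206 had 18.02 and 24.3. In the RefSeq promoter table (GRCm38.p6, 250 bases before to 50 after a start), which held 7 of the 10 genes, the window of Celsr3 was the only one of 15 with an RE1 word, and 0.113% of all 32851 windows hold one. Celsr3 also had the most shared sites within 50 kb, 17, and strong ones lay at the promoters of Ip6k2, with 161 and 174, and Slc26a6, with 145 and 183.

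The 96 sites near the 10 genes were not dense by comparison. The median was 10 per gene, against 11 over all protein-coding genes with quartiles of 5 and 19. Of them 52 were within 1 kb of a TSS, 27 at the genes' own starts and 25 at other genes only, and 44 were distal: 23 intronic, 18 intergenic and 3 exonic. Just inside and outside the 50 kb limit lay sites of Gad1 at 47.6 kb, with 35.7 and 31.1, and at 51.1 kb, with 13.7 and 11.1.

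Signals in the replicates lay within 2-fold at each of these sites, and the sites with a word were higher in replicate 2. Over the 96 sites, log2 ratios of replicate 2 over replicate 1 ran from −0.67 to 0.46. All 8 sites with a word were higher in replicate 2, against 37 of the 72 other sites of the neuronal genes. After the median over all shared sites was subtracted, the log2 ratio had a median of 0.19 at the 8 sites (0.07 to 0.38) and of 0.04 at the 72. The same direction was seen over the genome: 48.2% of all shared sites were higher in replicate 2, as were 62.8% of those with an RE1 word, 60.8% of those within 1 kb of a TSS and 71.5% of those with the CTCF consensus, which have higher signals as a class. No source states whether the authors scaled signal for depth, and the part of depth in this difference was not tested.

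**Figure D4:**
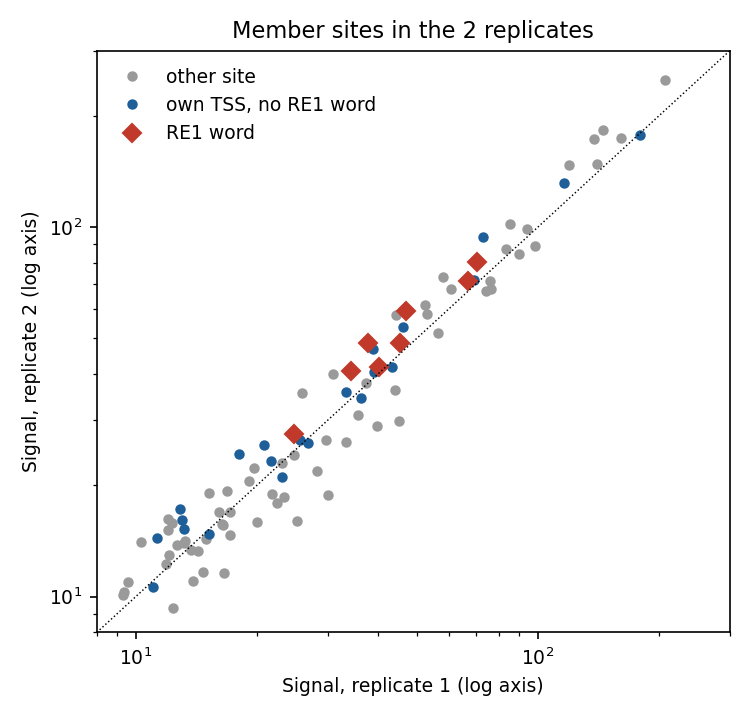
Signal in replicate 2 against signal in replicate 1 (log axes) for the 96 shared sites within 50 kb of the 10 genes, coloured as sites with an RE1 word, other sites within 1 kb of the gene's own TSS, and other sites. The dotted line marks equal signal; all 8 red diamonds lie above it, within 2-fold.

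Other neuronal genes, from 5 lists of 86 genes without the 9, were read in the same way. A promoter peak was found in both replicates in 80 (93.0%, against 71.8% of all genes). A peak within 100 bp of a TSS was found in 63 (73.3%, against 63.8%). The shares over all genes are not matched for promoter CpG content. By quintile of that content, the share with a promoter peak ran from 19.2% to 99%. An RE1-bearing site within 50 kb was found in 31 (36.05%, against 5.17% of all genes). In 17 genes (19.8%, against 0.82%) such a word lay within 1 kb of a TSS, as in 5 of the 9. The 31 distinct sites had median signals of 43.1 and 47.6, close to the 42.8 and 48.6 of the 8 sites above. RE1-bearing sites within 50 kb were not limited to neuronal genes. They were found for 2 of the 10 kidney genes (20%) and for 3 of the 14 nerve, neural crest and chromaffin genes described below (21.4%). The lists were chosen with earlier results of these data known, so nothing is read from these shares. No test was made of any of them.

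By role, 12 of 19 genes of transmitter receptors and synthesis had an RE1 site, the highest count of the 5 lists. The glutamate receptor subunit gene Gria2 had its strongest promoter peak at such a site, with 80.8 ± 8.94. Promoter peaks were present in both replicates in 16 of the 19, and Chat and Grm5 had none in either. Chat and Slc18a3, the acetylcholine synthesis and vesicle transport genes that share a locus, also share an RE1 site, with 33.5 and 27.5.

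Cytoskeletal and RNA-binding genes followed with an RE1 site in 8 of 21 and a promoter peak in 19. Mapt, the gene of the microtubule protein tau, had 108 ± 8.57 and Dpysl3 had 93.4 ± 6.72, while Elavl3 had no promoter peak in either replicate. Of the ion channel genes 5 of 15 had an RE1 site and 14 a promoter peak, led by Cacng2 with 192 ± 33.0. Of the synaptic release genes 4 of 17 had an RE1 site, in each within 1 kb of a TSS, and all 17 a promoter peak, led by Rab3a with 249 ± 1.30. Adhesion and growth factor genes had an RE1 site in 2 of 14 and a promoter peak in all 14. Celsr2, a relative of Celsr3, had 127 ± 7.37 without an RE1 site, and Vgf, a secreted neuropeptide precursor, had 119 ± 1.93 at its RE1 site. Median promoter signals in replicates 1 and 2 were 33.9 and 33.9 for transmitter genes and 46.1 and 52.6 for cytoskeletal and RNA-binding genes. They were 57.6 and 66.5 for channel genes, 57.4 and 54.0 for release genes, and 55.7 and 52.2 for adhesion and growth factor genes. All of these lay below the medians of 95.4 and 104.6 over all protein-coding genes. Genes lacking a promoter peak in 1 or both replicates are left out of each median.

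**Figure D5:**
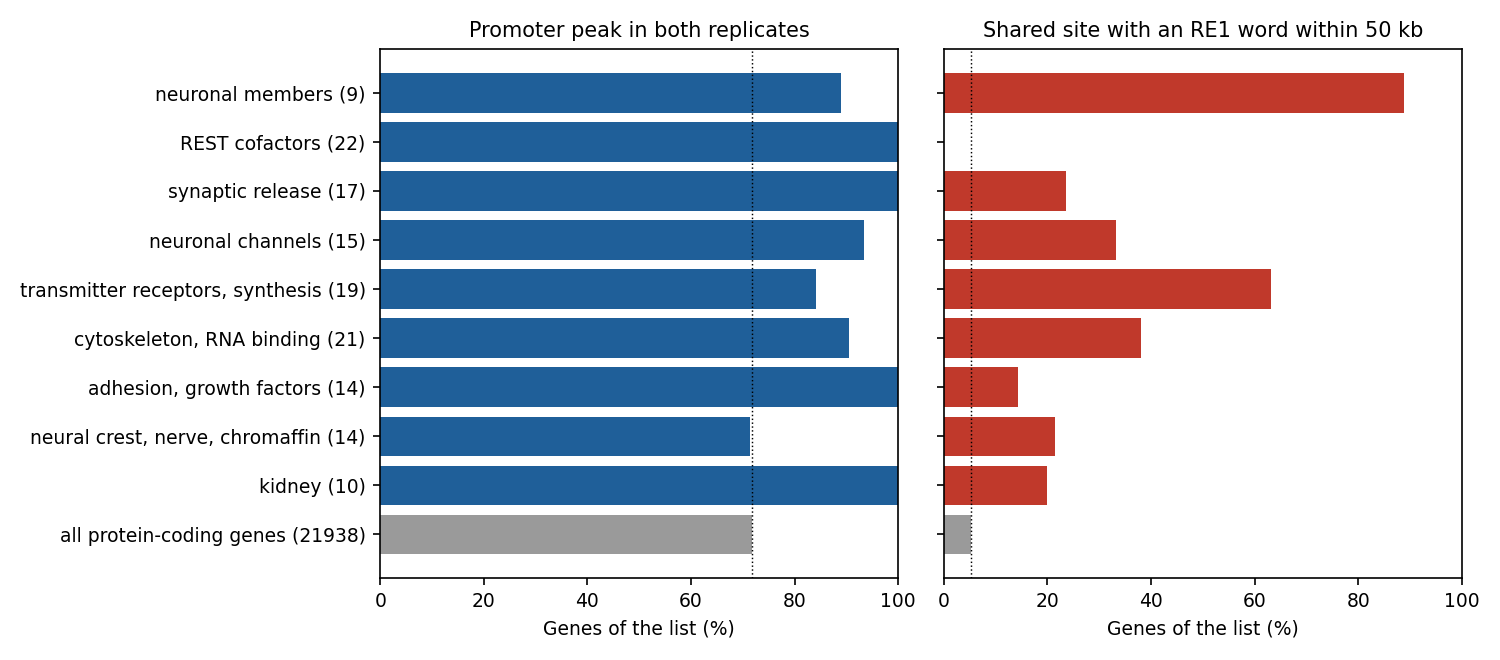
Percent of the genes of each list with a promoter peak in both replicates (left) and with a shared site holding an RE1 word within 50 kb (right), with the number of genes in brackets and all protein-coding genes in grey and as a dotted line. The neuronal genes described here, chosen with these peaks known, have the longest bar on the right; REST cofactor genes reach 100% on the left and 0% on the right.

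Cells of nerves, the neural crest and the adrenal medulla could be carried along with kidney tissue, and their genes were read in the same way. Of 14 such genes, 10 carried a promoter peak in both replicates (71.4%, against 71.8% of all genes), 2 in 1 replicate only and 2, among them S100b, in neither. Over the 10, signals in replicate 1 ran from 10.5 to 138. Low or missing signals were found at several defining genes. Sox10 of glia and neural crest had a peak in replicate 2 only, with 10.4, Dbh of noradrenergic cells in replicate 1 only, with 14.7, and Th had 10.5 and 9.86. The highest was Chgb, a granin of secretory granules, with 141 ± 3.47 at an RE1 site. The part of such cells in the signals at the neuronal genes was not tested.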

How the data were processed

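DNase-seq peaks of 2 newborn kidney libraries, 1 narrowPeak list each, were used. Each list came from 1 alignment of 36-nt reads to mm10, per the file headers. Left unstated (not given in the sources used here) were the aligner, peak caller, threshold and depth. Signal (column 7) is the authors' deposited value per peak and was used to describe and rank peaks. The deposited −log10 p (column 8), which is capped at 324, was not used. A shared site is a union of peaks overlapping by at least 1 bp that holds peaks of both libraries. TSSs came from GENCODE M21, and sequence from GRCm38, the build of mm10. CpG observed over expected was taken over 500 bp to each side of the most 5′ TSS. RE1 words were scanned over the whole genome, and steps were tested on simulated data.

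The 10 genes, the 8 lists (132 genes) and the words were chosen with earlier results of these data known, and with 1 group no test was made. Named are all 10 genes, their strongest promoter peaks, alternative starts with a peak, sites with an RE1 word and their 3 strongest sites; in each list, the 2 genes with the strongest promoter peak and the first 2 by name with none. A few genes under this rule are counted but not reported here. Other names were chosen after their values were seen: Six2, Sox10, Dbh, Th, Slc18a3, and the Rbfox3 sites beyond 50 kb. Alternatives varied the promoter window, the site window, the TSS set, the signal, the overlap and the number of matching letters. The work ran in Python 3.11.15 with pysam 0.24.0, numpy 2.4.6, matplotlib 3.10.9 and pandas 2.3.3.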

Additional observations from a re-analysis of the deposited data

How the results depend on the processing

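The number of shared sites within 50 kb of the 10 genes depended on the window and the signal: 96 became 52 within 25 kb, 183 within 100 kb and 63 with peaks in the upper 50% of signal, and 89 where peaks had to overlap by 50%. Using the peaks of 1 replicate alone gave 120 in either case. Genes with a promoter peak numbered 8 to 10 over all settings, against 9, and 9 with either replicate alone. RE1-bearing sites numbered 7 with at least 16 letters, where Rbfox3 was lost, and 10 with at least 14, against 8, and 8 with either replicate alone. Genes of the 5 neuronal lists with a promoter peak ranged from 76 to 83, against 80, and from 81 to 82 with 1 replicate alone. The median log2 ratio was 0.09 centred and 0.08 uncentred. Chosen after seeing the data were words over the whole gene and 50 kb to each side, which gave 11 sites, words within 100 kb, which gave 8, peaks within 100 bp of a TSS and TSSs of the basic set, which each left 8 genes with a promoter peak. No paired analysis was possible because the study has 1 group. Because depth is unknown, no precision can be given for a single peak, and a missing peak says only that none passed the authors' threshold.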
